A study of Mus musculus with 10 samples.

Results

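The 10 genes described here encode enzymes and a helper protein that make eicosanoids, the short-lived lipid signals derived from arachidonic acid. They were chosen by name as rows of the deposited count table, and all 10 of them were found among its 21869 genes. The table covers 10 RNA libraries of retinal cells from mice titled WT, sorted as live CD11b-positive cells with an intermediate level of CD45, a gate that the labels call microglia. The sort divided this gate by CD36, a scavenger receptor that takes up fatty acids and oxidized lipoprotein, into 5 CD36-positive libraries (numbered 1, 2, 3, 4 and 7) and 5 CD36-negative libraries (numbered 1, 2, 4, 7 and 8). The protocol shared by all samples states an intravenous dose of 20 mg/kg sodium iodate (NaIO3), which damages the pigment epithelium under the retina, or the same volume of PBS, with eyes collected on day 7. Which of these the mice behind the sorted libraries received is not in the labels, nor is their age, nor whether a library held 1 animal or several, so p-values measure the spread between these libraries, which may be partly technical.

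Arachidonic acid is held in membrane phospholipids and is cut free by cytosolic phospholipase A2, the product of Pla2g4a. From there the pathway divides. In the cyclooxygenase branch, Ptgs1 (COX-1) and the inducible Ptgs2 (COX-2) make prostaglandin H2, which Ptges turns into prostaglandin E2, Hpgds into prostaglandin D2 and Tbxas1 into thromboxane A2. In the lipoxygenase branch, Alox5 (5-lipoxygenase), aided by the membrane protein FLAP encoded by Alox5ap, makes leukotriene A4, which Lta4h turns into leukotriene B4, an attractant of neutrophils, and Ltc4s into leukotriene C4, the parent of the cysteinyl leukotrienes. Microglia are known for high levels of Ptgs1, Hpgds and Tbxas1, and neutrophils, monocytes, dendritic cells and mast cells for the lipoxygenase branch.

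Total counts per library ran from 5001680 to 13250982, and CD36-positive libraries 1 and 3 were the shallowest. Library 1 stood apart on the second principal component of log2 CPM and library 3 on the third (15.9% and 12.3% of the variance). CPM here stands for TMM-scaled CPM, the count of a gene relative to the library's total after a correction for composition. Cd36, the check of the sort, averaged 219 ± 39.9 CPM where CD36 was positive and 50.3 ± 5.51 CPM where it was negative (SD, n = 5 each), with no overlap. Of 10 microglia markers all were tested and 0 passed (2 at an unadjusted p under 0.05, 0 by DESeq2 or limma voom), and their levels summed to 6279 to 14895 CPM in the CD36-positive group and to 6732 to 16015 CPM in the other. Marker genes of most other leukocytes moved with the groups, and those of B cells did not pass (19.9 to 34.5 against 10.9 to 35.3 CPM; 0 of 2 tested passed, 0 at an unadjusted p under 0.05 and 0 by DESeq2). The summed level in CD36-positive against CD36-negative libraries was 13.7 to 64.1 against 695 to 1063 CPM for dendritic cells (10 of 10 tested fell), 83.7 to 191 against 346 to 887 for neutrophils (8 of 9 fell), 284 to 758 against 926 to 1753 for monocytes (7 of 10 fell) and 0.901 to 7.59 against 42 to 304 for T and NK cells (4 of 4 fell). For mast cells and basophils it was 0.558 to 5.86 against 39.7 to 96.8 CPM, where 1 of 2 tested markers fell, Kit. Kit alone was at 35.5 to 93.2 CPM in the CD36-negative libraries, so most of that sum was Kit. Of 11 such markers found, only 2 had enough counts over both groups to be tested. Cpa3, Cma1, Mcpt4 and Prss34 were at 0 in every CD36-positive library. Of 7 tested markers of border macrophages, which carry CD11b as microglia do, 2 rose and 1 fell (6 at an unadjusted p under 0.05, 5 by DESeq2), and 5 had log2 fold changes below 0 (median -1.51). Ms4a7 rose from 310 ± 121 to 799 ± 116 CPM and Pf4 from 43.7 ± 20.9 to 107 ± 26.3 CPM, F13a1 fell from 62.7 ± 43.5 to 8.18 ± 7.55 CPM, and Mrc1 was at 86.1 ± 63.4 against 86.7 ± 76.8 CPM (SD, n = 5 each). Since Ms4a7 holds most of it, the sum of the list was 847 to 1133 against 329 to 908 CPM. Platelet markers, which bear on Ptgs1 and Tbxas1, summed to 2.03 to 13.3 against 3.6 to 9.2 CPM, and 0 of 2 tested passed (0 at an unadjusted p under 0.05 and 0 by DESeq2). Sums were also lower for markers of photoreceptors (74.1 to 610 against 264 to 1592 CPM, with overlap, and 2 of 6 fell). The same held for Müller glia and astrocytes (278 to 379 against 557 to 981, 1 of 4 fell) and endothelial cells (7.63 to 12.2 against 27.2 to 44.9, 2 of 4 fell). The Müller glia and astrocyte marker that fell was Vim, the most abundant of its list (212 against 653 CPM). Glul of the same list was higher, at 116 against 80.9 CPM, and did not pass. In bulk samples, fewer cells of a type and less RNA per cell cannot be told apart, and the part of these other cells in the results below was not tested.

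Of the 10 members, 8 had enough counts to be tested, and 1 passed: Pla2g4a, which rose in CD36-positive cells. Over all 11597 genes tested, 7.35% passed, 2.61% as higher and 4.73% as lower in CD36-positive cells (edgeR's quasi-likelihood test, adjusted p under 0.05), so 1 of 8 members (12.5%) is near that background. The other 7 tested members did not pass, although 5 of the 8 had an unadjusted p under 0.05, against 21.3% of all genes. The 4 members from phospholipase to prostanoid synthases had log2 fold changes above 0, and the 4 of the lipoxygenase branch had log2 fold changes below 0. The median log2 fold change was 0.58 over the 3 tested cyclooxygenase genes and -0.49 over the 4 lipoxygenase genes, beside 0.02 over all genes tested.

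**Figure D1:**
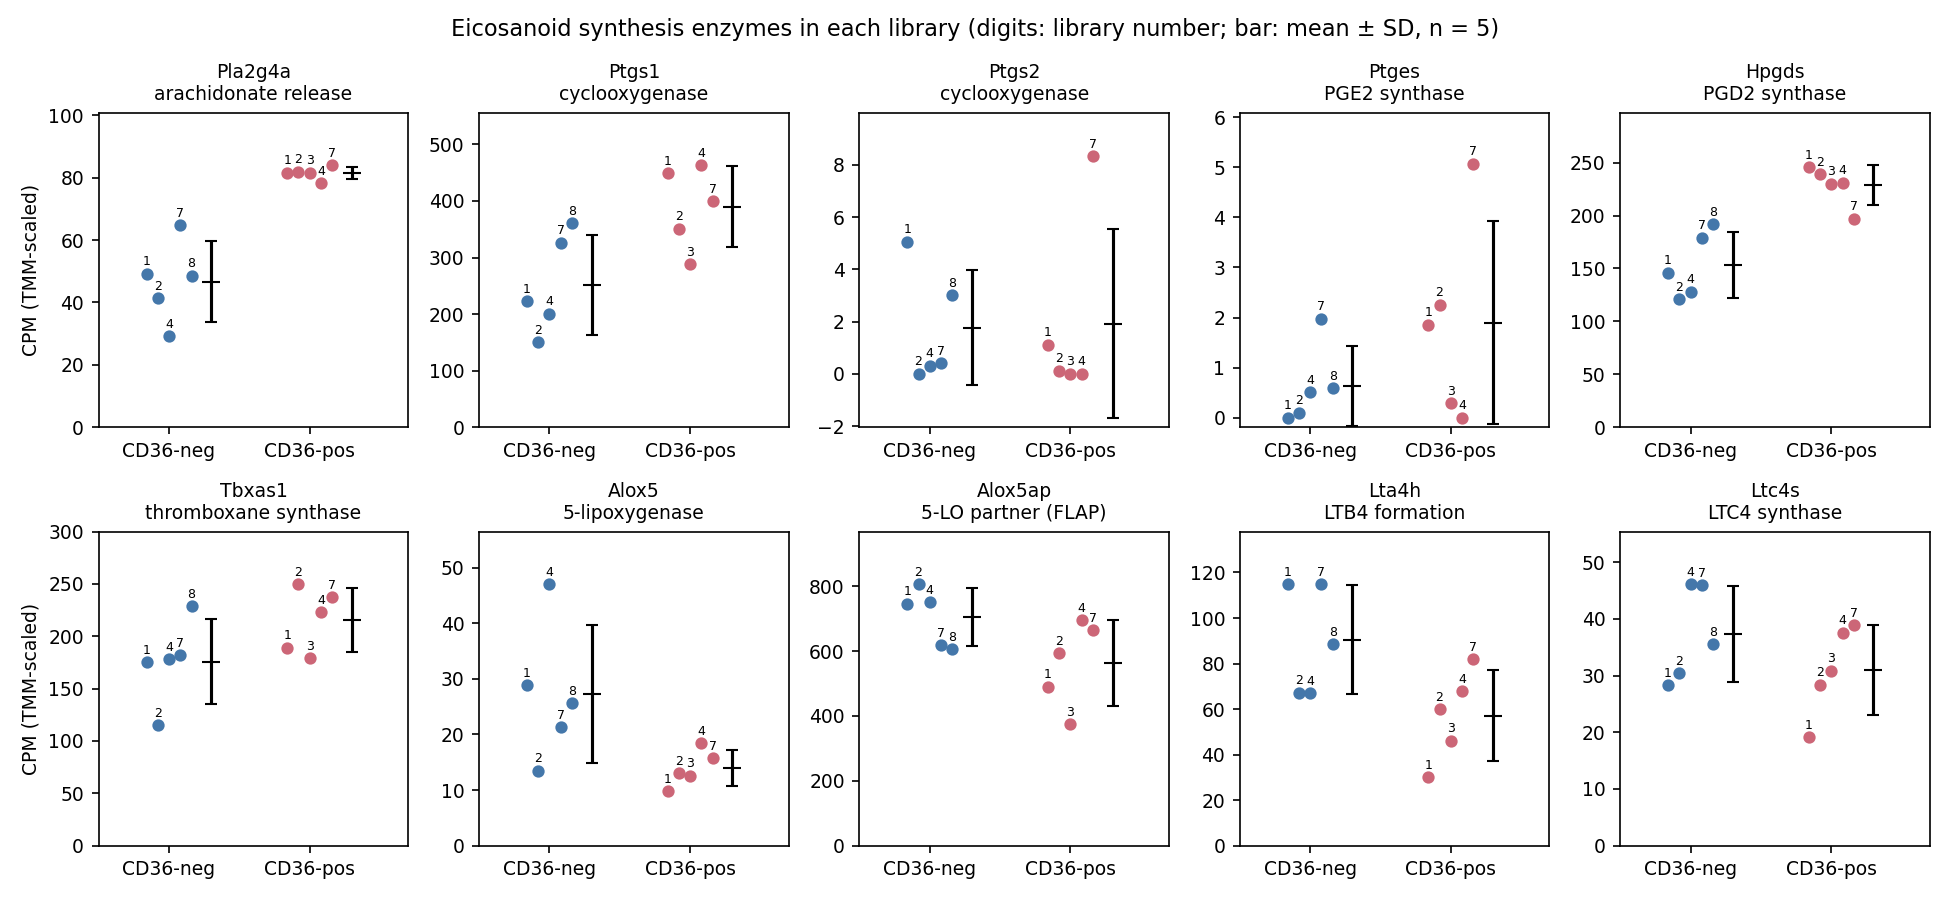
Level of each of the 10 members in each library, in TMM-scaled CPM on linear axes; points are libraries with their numbers, blue for CD36-negative and red for CD36-positive, and black bars are the mean ± SD of 5 libraries. The CD36-positive libraries lie between 78.3 and 84.0 CPM for Pla2g4a, above every CD36-negative library, and Ptgs2 and Ptges stay under 10 CPM everywhere.

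The sequence before the start site is shown for Ptgs1 and Hpgds, the tested cyclooxygenase branch genes with the highest fold changes, and for Alox5, the lipoxygenase branch gene with the lowest, because the branches are contrasted on them. The windows are the 250 bases before the annotated start in RefSeq (GRCm38.p6), printed 5′ to 3′ on the gene's strand. Capitals mark letters that match 1 of 6 motifs searched on both strands. The first was GAGGAAGT, a site of PU.1, a master regulator of myeloid cells. The second was TGANTCA, the site of AP-1 factors that many inflammatory stimuli activate. The third was the GC box in the form GGGCGG, which Sp1 binds in many promoters without other core elements. The fourth was the TATA box in the form TATAAA, at which the core transcription machinery assembles. The fifth was the E box in the form CACGTG, bound by factors such as USF and TFEB. The last was TTGCNNAA, bound by C/EBP factors, which are also active in myeloid cells.
Ptgs1 (chr2:36230176-36230425, plus strand): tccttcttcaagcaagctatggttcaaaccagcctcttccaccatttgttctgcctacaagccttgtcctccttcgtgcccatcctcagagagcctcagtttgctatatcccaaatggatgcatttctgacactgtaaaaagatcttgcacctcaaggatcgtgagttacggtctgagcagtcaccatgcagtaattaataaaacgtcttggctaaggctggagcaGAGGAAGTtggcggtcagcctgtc
Hpgds (chr6:65144731-65144980, minus strand): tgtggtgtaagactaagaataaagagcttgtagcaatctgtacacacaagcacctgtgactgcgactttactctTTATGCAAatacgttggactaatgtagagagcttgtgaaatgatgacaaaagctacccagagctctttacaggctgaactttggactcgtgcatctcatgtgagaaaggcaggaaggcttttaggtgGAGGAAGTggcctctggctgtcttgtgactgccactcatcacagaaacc
Alox5 (chr6:116461179-116461428, minus strand): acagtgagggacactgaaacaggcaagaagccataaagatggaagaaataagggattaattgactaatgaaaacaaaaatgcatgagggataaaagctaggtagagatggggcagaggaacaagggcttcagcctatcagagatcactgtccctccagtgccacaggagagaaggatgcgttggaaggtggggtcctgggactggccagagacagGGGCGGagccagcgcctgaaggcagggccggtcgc

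GAGGAAGT begins 24 bases before the RefSeq start of Ptgs1 and 49 bases before that of Hpgds. It was in 2.44% of the 32851 windows of the same length, and in 0 of the other 7 members with a window. Alox5ap, of the lipoxygenase branch, had no window and was not searched. Alox5 holds GGGCGG from 35 bases before its start, a motif in 32.7% of all windows, which Ptgs2 and Ptges also hold. Only the first window listed for Pla2g4a was searched, and 0 of the 6 motifs matched in it, as in the windows of Lta4h and Ltc4s. Hpgds holds TTGCNNAA from 176 bases before its start (9.56% of all windows), as does the window of Ptgs2 at another place, and Tbxas1 alone holds the AP-1 motif (6.75%) and the TATA box (12.4%), while the E box (6.02%) was in 0 of the 9. In the printed windows no match overlapped another. A match is a description of letters, and binding was not measured. In GENCODE M21 the genes lie on chromosome 2 (Ptgs1, from 36230426 to 36252272), chromosome 6 (Hpgds, from 65117293 to 65144908) and chromosome 6 (Alox5, from 116410077 to 116461178). The windows of Ptgs1 and Alox5 end at these starts. For Hpgds the GENCODE start, 65144908, lies within the window, so its GAGGAAGT match is inside the gene as annotated there. The window of Ltc4s also reaches in part into its GENCODE gene, and those of Tbxas1 and Ptges lie wholly inside theirs.

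Pla2g4a, whose enzyme releases arachidonic acid for both branches, was at 81.7, 82.0, 81.7, 78.3 and 84.0 CPM in CD36-positive libraries 1, 2, 3, 4 and 7. In CD36-negative libraries 1, 2, 4, 7 and 8 it was at 49.3, 41.3, 29.2, 64.9 and 48.6 CPM. The CD36-positive libraries were close to each other, the CD36-negative ones spread more widely with library 7 highest and library 4 lowest, and the groups did not overlap. Over all genes tested, the groups were likewise apart with the CD36-positive libraries on top in 2.59% and underneath in 5.83%. The log2 fold change was 0.80 (SE 0.21, 95% confidence interval 0.37 to 1.24, edgeR adjusted p = 0.0238), or 1.75-fold. It did not pass without CD36-negative library 1 (0.82, adjusted p = 0.0517), 2 (0.76, adjusted p = 0.0621), 4 (0.65, adjusted p = 0.0779) or 8 (0.82, adjusted p = 0.0513), while it passed without any 1 CD36-positive library and without CD36-positive libraries 1 and 3 together. Over 20 alternatives the log2 fold change stayed between 0.65 and 0.95, with adjusted p of 0.00294 to 0.0779. Pla2g4a lies on chromosome 1 from 149829618 to 149961290, minus strand (GRCm38, GENCODE M21), and is protein coding, as are all members. On the same build, Ptgs2 lies near it on chromosome 1 (150100031 to 150108227), Ptges on chromosome 2 (30889471 to 30929863), Tbxas1 on chromosome 6 (38875404 to 39084585), Alox5ap on chromosome 5 (149264767 to 149288153), Lta4h on chromosome 10 (93453411 to 93484875) and Ltc4s on chromosome 11 (50236461 to 50238616).

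In the cyclooxygenase branch, Ptgs1, the constitutive cyclooxygenase, was at 449, 351, 288, 463 and 400 CPM in the CD36-positive libraries in the same order. The CD36-negative libraries held 223, 150, 201, 326 and 361 CPM. The CD36-positive libraries were higher on the whole, but CD36-positive library 3 lay below CD36-negative libraries 7 and 8, and CD36-positive library 2 below CD36-negative library 8. The log2 fold change of 0.63 (SE 0.23, interval 0.15 to 1.11) did not pass (edgeR adjusted p = 0.111). Hpgds, the hematopoietic prostaglandin D synthase, was at 246, 239, 230, 231 and 197 CPM in the CD36-positive libraries and at 146, 121, 128, 179 and 192 CPM in the CD36-negative ones. The groups did not overlap, although CD36-positive library 7 and CD36-negative library 8 nearly met. At a log2 fold change of 0.58 (SE 0.17, interval 0.21 to 0.94), Hpgds stood just outside the threshold (edgeR adjusted p = 0.0526), and the DESeq2 Wald test put it inside (adjusted p = 0.0111). Over 20 alternatives its adjusted p ran from 0.0111 to 0.175, and 5 of them passed.

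Tbxas1, thromboxane A synthase, was at 189, 250, 179, 223 and 237 CPM in the CD36-positive libraries and at 175, 115, 178, 182 and 229 CPM in the CD36-negative ones. Apart from the low value of CD36-negative library 2, the groups shared most of their range, and the log2 fold change of 0.30 (SE 0.19, interval -0.10 to 0.70) did not pass (edgeR adjusted p = 0.400). Ptgs2, the cyclooxygenase that inflammatory stimuli induce in many cells, had 112 counts in all over the CD36-positive group, of which 105 were in library 7, and 102 over the CD36-negative group, of which 59 were in library 1 and 36 in library 8. It was at 0 in CD36-positive libraries 3 and 4 and CD36-negative library 2, and between 0.113 and 8.32 CPM in the others; a count of 0 in these 3 libraries allows up to 3 counts, or 0.430, 0.338 and 0.302 CPM, counting error only. Ptges, the inducible prostaglandin E synthase, had 96 counts over the CD36-positive group, 64 of them in library 7, and 32 over the CD36-negative group; it was at 0 in CD36-positive library 4 and CD36-negative library 1 and reached at most 5.07 and 1.98 CPM in the groups. Neither gene reached the count needed for the test in enough libraries. Fitted without the filter, neither passed: the log2 fold change was 0.16 for Ptgs2 (SE 1.26, edgeR adjusted p = 0.959) and 1.57 for Ptges (SE 1.34, edgeR adjusted p = 0.528), with most counts in 1 or 2 libraries of each group. As a share of the counts of both cyclooxygenase genes, Ptgs1 took at least 97.8% in every library. Within the branch, 0 of 3 tested genes passed in edgeR or limma voom, 2 had an unadjusted p under 0.05 and 1 passed with DESeq2.

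In the lipoxygenase branch, Alox5 was at 9.86, 13, 12.6, 18.4 and 15.8 CPM in the CD36-positive libraries and at 28.9, 13.5, 47.1, 21.3 and 25.6 CPM in the CD36-negative ones. CD36-negative library 2 lay among the CD36-positive values, every other CD36-negative library lay above all of them, and CD36-negative library 4 was far above the rest. The log2 fold change of -0.97 (SE 0.32, interval -1.65 to -0.29) did not pass (edgeR adjusted p = 0.0836). It was -0.70 without CD36-negative library 4, while without CD36-negative library 2 it was -1.14 and passed (adjusted p = 0.0410), as it did with the DESeq2 Wald test (-0.97, adjusted p = 0.0386); over 20 alternatives its adjusted p ran from 0.0386 to 0.2745. Lta4h, the hydrolase that forms leukotriene B4, was at 30.0, 59.9, 46.1, 67.8 and 81.9 CPM in the CD36-positive libraries and at 115, 67.2, 67.1, 115 and 88.5 CPM in the CD36-negative ones. The groups overlapped at CD36-positive libraries 4 and 7. Its log2 fold change was -0.66 (SE 0.26, interval -1.21 to -0.11, edgeR adjusted p = 0.144), and it was -0.38 when CD36-positive libraries 1 and 3 were left out.

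Alox5ap, which encodes FLAP, was at 490, 594, 375, 695 and 664 CPM in the CD36-positive libraries and at 746, 807, 751, 618 and 605 CPM in the CD36-negative ones. CD36-positive libraries 1 and 3 were the lowest, and without these 2 the log2 fold change of -0.32 (SE 0.19, interval -0.72 to 0.07, edgeR adjusted p = 0.342) was -0.12. Ltc4s, leukotriene C4 synthase, was at 19.2, 28.4, 30.9, 37.6 and 38.9 CPM in the CD36-positive libraries and at 28.3, 30.4, 46.2, 46.0 and 35.6 CPM in the CD36-negative ones. Its groups overlapped over most of their range (log2 fold change -0.26, SE 0.24, interval -0.78 to 0.25, edgeR adjusted p = 0.593). CD36-positive library 1, the shallowest, was lowest for Alox5, Lta4h and Ltc4s. Of the 4 genes of the branch 0 passed in edgeR or limma voom, 2 had an unadjusted p under 0.05 and 1 passed with DESeq2.

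**Figure D2:**
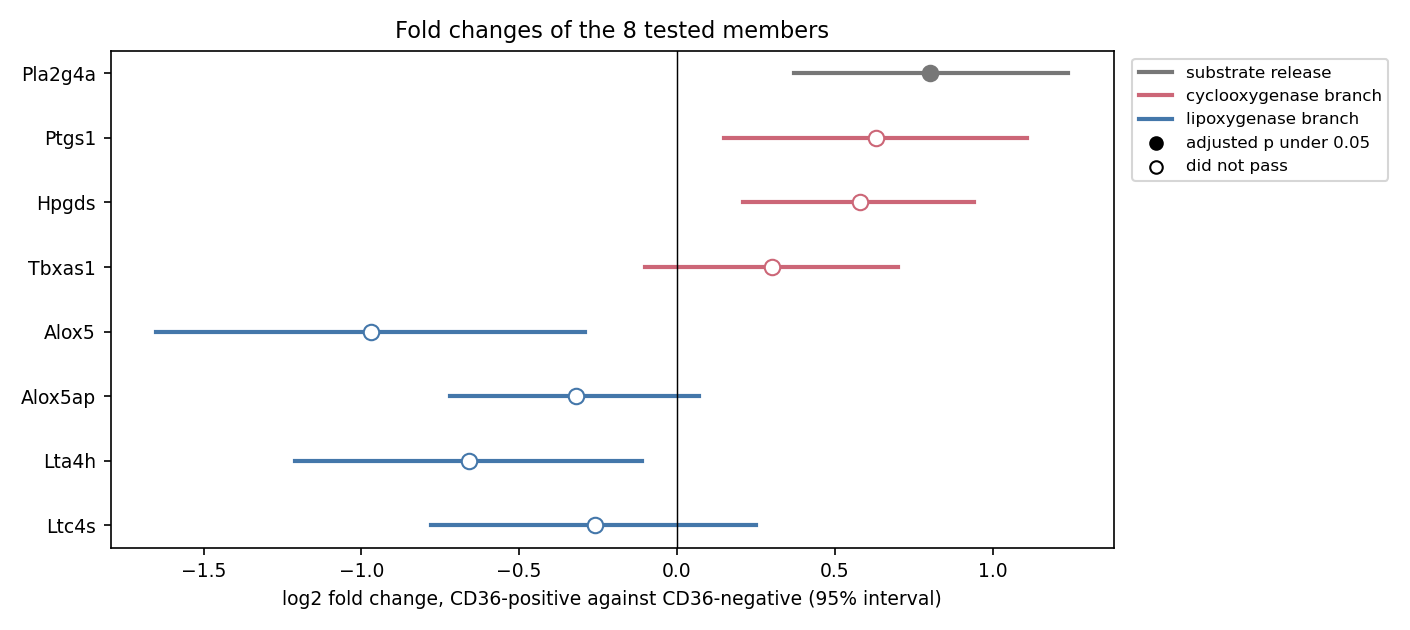
Log2 fold change of the 8 tested members, CD36-positive against CD36-negative, with 95% confidence intervals from edgeR; colours mark the branch, and filled points passed an adjusted p of 0.05. The 3 cyclooxygenase genes lie at 0.30 to 0.63, the 4 lipoxygenase genes at -0.97 to -0.26, and Pla2g4a at 0.80 is the filled point.

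The contrast of the branches was described within each library, with no test, since the members were chosen by name with earlier results known. The mean log2 CPM of Ptgs1, Hpgds and Tbxas1 minus that of the 4 lipoxygenase genes was 2.74, 2.19, 2.15, 1.93 and 1.80 in CD36-positive libraries 1, 2, 3, 4 and 7. It was 0.96, 0.89, 0.69, 1.26 and 1.58 in CD36-negative libraries 1, 2, 4, 7 and 8. The groups did not overlap and the CD36-positive libraries were higher, but CD36-positive library 7 and CD36-negative library 8 were separated by less than the pooled SD within groups (0.356), and CD36-positive library 1 stood highest. Taken alone, the means of each branch overlapped between the groups: they were 7.84 to 8.17 in CD36-positive and 7.0 to 7.98 in CD36-negative libraries for the cyclooxygenase genes, and 5.37 to 6.26 and 6.11 to 6.68 for the lipoxygenase genes. These means of log2 CPM, chosen after the values were seen, weigh each gene alike in every library, so they compare libraries and not genes. On the scale of fold changes the cyclooxygenase median exceeded the lipoxygenase median by 1.07, and by 0.93 to 1.3 over 20 alternatives. For the entry enzymes alone, the CPM of Ptgs1 was 45.5, 27.1, 22.9, 25.2 and 25.3 times that of Alox5 in the CD36-positive libraries and 7.72, 11.1, 4.26, 15.3 and 14.1 times in the CD36-negative ones. The summed dendritic cell, monocyte and neutrophil markers were lower in the CD36-positive libraries. Of 10 tested monocyte markers 7 fell, among them S100a6 (6.99 against 217 CPM). The most abundant of that list, Ccr2, was at 413 against 408 CPM and did not pass. Of 9 tested neutrophil markers 8 fell, among them S100a9 (2.52 against 117 CPM). The most abundant of that list, Csf3r (120 against 173 CPM), did not pass. All 10 dendritic cell markers fell, with the most abundant, Ccr7, at 7.04 against 208 CPM. The part of these cells in the contrast was not tested.

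**Figure D3:**
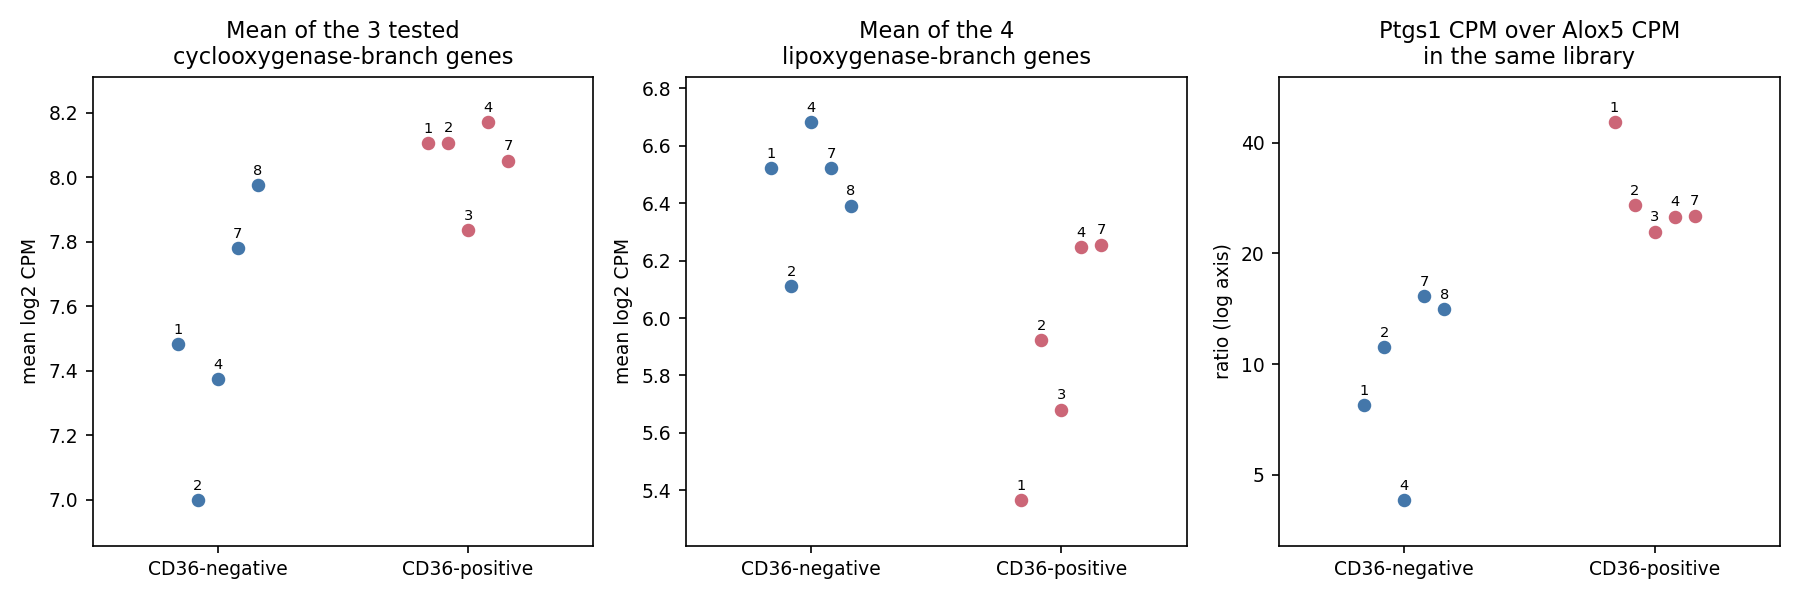
Branch summaries for each library: the mean log2 CPM of Ptgs1, Hpgds and Tbxas1 (left), the mean log2 CPM of Alox5, Alox5ap, Lta4h and Ltc4s (middle), and the CPM of Ptgs1 over that of Alox5 on a log axis (right), with points numbered by library. The ratio runs from 22.9 to 45.5 in CD36-positive and from 4.26 to 15.3 in CD36-negative libraries, while the means of each branch overlap between the groups.

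Levels were compared between genes as CPM per kilobase of the principal transcript in GENCODE M21. In CD36-negative cells Alox5ap was highest, at 564 ± 71.1 CPM per kb, and its lowest library (484) was above the highest of any other member. Tbxas1 (88.3 ± 20.4) and Ptgs1 (87.9 ± 30.8) followed and did not differ beyond their spread. Ltc4s (57.5 ± 13.1), Lta4h (44.7 ± 11.9) and Hpgds (44.1 ± 8.97) had overlapping ranges. Each of these also reached into the range of Ptgs1, and of them only Ltc4s reached into that of Tbxas1. Ranges overlapped as well for Pla2g4a (16.3 ± 4.56) and Alox5 (9.67 ± 4.43), which were below the rest. In CD36-positive cells the order of means was Alox5ap (450 ± 105), Ptgs1 (136 ± 25.2), Tbxas1 (108 ± 15.3), Hpgds (65.8 ± 5.38), Ltc4s (47.8 ± 12.3), Pla2g4a (28.5 ± 0.720), Lta4h (28.2 ± 9.85) and Alox5 (4.93 ± 1.15), with Ptgs1 and Tbxas1 overlapping, as did Hpgds and Ltc4s, Ltc4s and Lta4h, and Pla2g4a and Lta4h. FLAP message was thus far more abundant per length than that of its partner Alox5 in both groups, and Alox5 was the lowest of the 8 tested members. Ptgs2 and Ptges had means of at most 0.520 CPM per kb. The place of Tbxas1 depends on the length used, since all its annotated exons together span 9094 bp against 1990 bp for the principal transcript; with the lengths of all exons it stood at 19.3 in CD36-negative cells, behind Ptgs1 (64.9), Ltc4s (36.8) and Hpgds (23.8). Ptgs1, Tbxas1, Alox5ap and Ltc4s share 148, 144, 189 and 268 exonic bp with genes annotated on the other strand, and as the counting is not stated to use strand, reads from these stretches could belong to either.

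**Figure D4:**
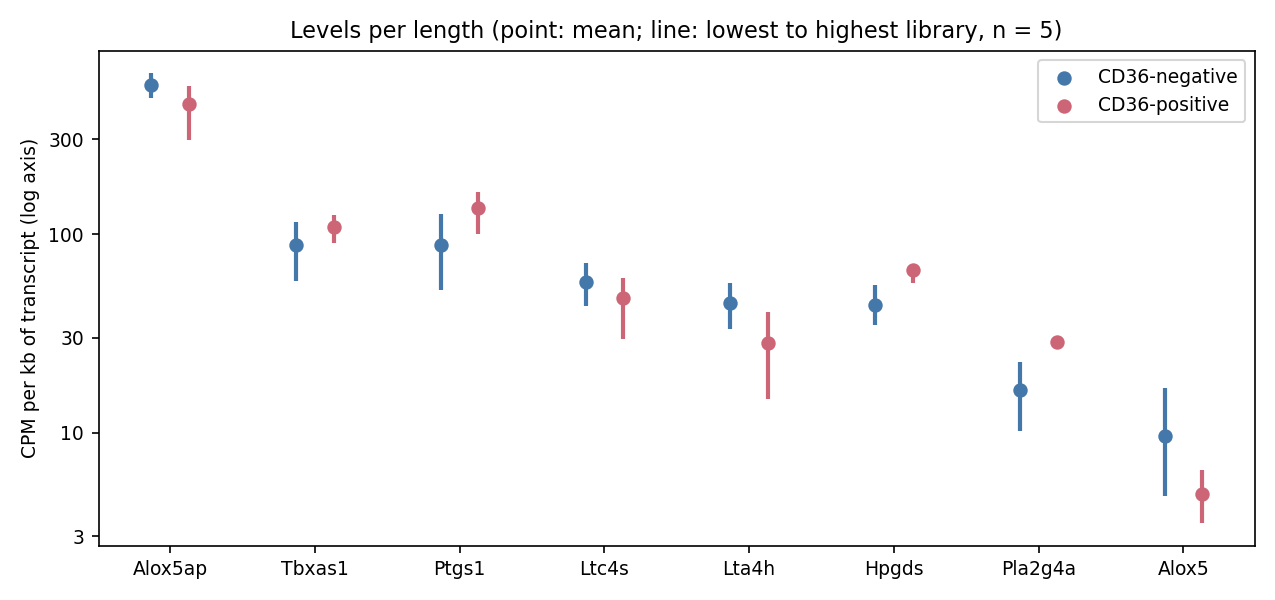
Level of the 8 tested members per kilobase of principal transcript, on a log axis, in CD36-negative (blue) and CD36-positive (red) libraries; points are means and lines run from the lowest to the highest of 5 libraries. Alox5ap has means of 564 and 450 CPM per kb, and Alox5 reaches at most 16.7.

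The genes with a profile over the 10 libraries most like that of Hpgds, by the root mean square difference of log2 CPM centred on each gene's mean, were BC005537 (0.128), Gm14295 (0.146; a member of a family of close copies, so its count is uncertain) and Agps (0.147), against a median of 0.604 over all other tested genes. Agps encodes an enzyme of ether lipid synthesis. Closest to Alox5 were Pid1 (0.253), Nfkb2 (0.265), which encodes an NF-kB subunit, and Nr1h2 (0.266), which encodes the oxysterol receptor LXRβ, against a median of 0.814.

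Other genes of the pathway, 95 listed by their role, were read beside the members; 92 were in the table and 59 were tested. Of these 3 rose, 5 fell and 51 did not pass (13.6% called, beside 7.35% of all genes; median log2 fold change -0.13). With 1 library left out or another setting, 1 to 3 rose and 2 to 9 fell. Leaving out CD36-negative library 4 or 8 or CD36-positive library 2 gave 1 rise, and leaving out CD36-negative library 2, 4 or 8 gave 2 falls; leaving out CD36-negative library 1 or 7 or CD36-positive library 3, 4 or 7 gave 3 falls. Without CD36-positive libraries 1 and 3 together the counts were again 3 and 5.

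The receptors moved in both directions. Ltb4r1, the high-affinity receptor for leukotriene B4 (BLT1), was at 0.930, 0, 1.86, 0 and 2.61 CPM in CD36-positive and at 16.7, 25.5, 36.2, 33.2 and 26.1 CPM in CD36-negative libraries. It was near 0 in the first group and clearly present in all libraries of the second (log2 fold change -4.62, SE 0.72, edgeR adjusted p = 0.000478), and it passed in all 20 alternatives (-6.26 to -4.29). Alongside, 8 of 9 tested neutrophil markers, 10 of 10 of dendritic cells and 4 of 4 of T and NK cells fell. Cysltr1, a receptor for cysteinyl leukotrienes, rose: it was at 180, 146, 113, 107 and 97.2 CPM in the CD36-positive libraries and at 98.3, 73.4, 54.0, 69.4 and 58.5 CPM in the CD36-negative ones. CD36-positive library 7 lay just below CD36-negative library 1, the only overlap, and the log2 fold change of 0.86 (SE 0.22, edgeR adjusted p = 0.0222) did not pass without CD36-negative library 4, 7 or 8, CD36-positive library 2, or CD36-positive libraries 1 and 3 together (0.71 to 0.85, adjusted p of 0.0527 to 0.0835).

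Cmklr1, the receptor for chemerin, which also binds the lipid mediator resolvin E1, rose from 8.88 ± 1.35 to 27.0 ± 15.1 CPM (n = 5 each; log2 fold change 1.6, SE 0.34, edgeR adjusted p = 0.00708). CD36-positive library 1 was highest at 53.4 CPM, the other 4 lay between 15.5 and 24.2, and all lay above the CD36-negative range of 6.99 to 10.4; it passed in all 20 alternatives (1.10 to 1.77). Ptgir, the prostacyclin receptor, was at 1.49, 1.02, 0.573, 0 and 0 CPM in the CD36-positive libraries and at 6.18, 8.86, 10.5, 3.45 and 3.09 CPM in the CD36-negative ones. These low levels did not overlap, and the log2 fold change was -3.43 (SE 0.97, edgeR adjusted p = 0.0389), a call that ended when CD36-positive library 3 or 4, or any 1 of the 5 CD36-negative libraries, was left out. The prostaglandin E2 receptor gene Ptger4, at 78.7 against 64.7 CPM, was the most abundant of the prostanoid receptors tested by CPM and did not pass (log2 fold change 0.28, edgeR adjusted p = 0.526).

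Among the enzymes around the branches, Cyp4f16, of a cytochrome P450 family that oxidizes fatty acids and leukotrienes, fell: it lay between 55.2 and 80.8 CPM in the CD36-negative libraries and between 20.5 and 31.2 CPM in the CD36-positive ones (log2 fold change -1.29, SE 0.20, edgeR adjusted p = 0.000440), and passed in all 20 alternatives. Ptgr1, a reductase that inactivates prostaglandins and leukotriene B4, rose by 0.82 on the log2 scale (38.0 ± 6.39 against 21.5 ± 5.59 CPM, edgeR adjusted p = 0.0456). Dpep2, a dipeptidase that converts leukotriene D4, was lower, at 21.8 ± 8.89 against 46.7 ± 18.1 CPM, a log2 fold change of -1.10 (SE 0.30, edgeR adjusted p = 0.0348). Mboat7, which returns arachidonic acid to phosphatidylinositol, was at 47.2 ± 15.3 against 85.7 ± 17.0 CPM, a log2 fold change of -0.86 (SE 0.25, edgeR adjusted p = 0.0479). The calls of Ptgr1, Dpep2 and Mboat7 were lost in 11, 7 and 11 of 20 alternatives, with adjusted p up to 0.135, 0.121 and 0.126. Ptgr1 did not pass without CD36-negative library 1, 2, 4 or 8 or CD36-positive library 2, 3, 4 or 7, and Dpep2 not without CD36-negative library 2, 4 or 8 or CD36-positive library 1, 4 or 7. Mboat7 did not pass without any 1 CD36-negative library, without CD36-positive library 2, 3 or 7, or without CD36-positive libraries 1 and 3 together. By list, 1 of 11 tested genes for activation and reacylation of arachidonic acid passed (Mboat7), 1 of 5 other lipoxygenase and leukotriene genes (Dpep2), 2 of 11 for inactivation and transport (Ptgr1 and Cyp4f16), 1 of 5 prostanoid receptors (Ptgir) and 3 of 5 leukotriene and related receptors. The 1 epoxyeicosanoid gene tested did not pass (0 at an unadjusted p under 0.05), and DESeq2, which tests more genes, called 1 gene of that list. Of 15 other phospholipases and lipases 0 passed (1 at an unadjusted p under 0.05, 2 by DESeq2), among them Pla2g7 at 332 against 333 CPM. Of 6 other prostanoid synthases 0 passed (1 at an unadjusted p under 0.05, 0 by DESeq2), with Ptges3 at 235 against 181 CPM. Ptger4, Pla2g7, Ptges3 and the markers Pf4 and F13a1 were named here after their values were seen.

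**Figure D5:**
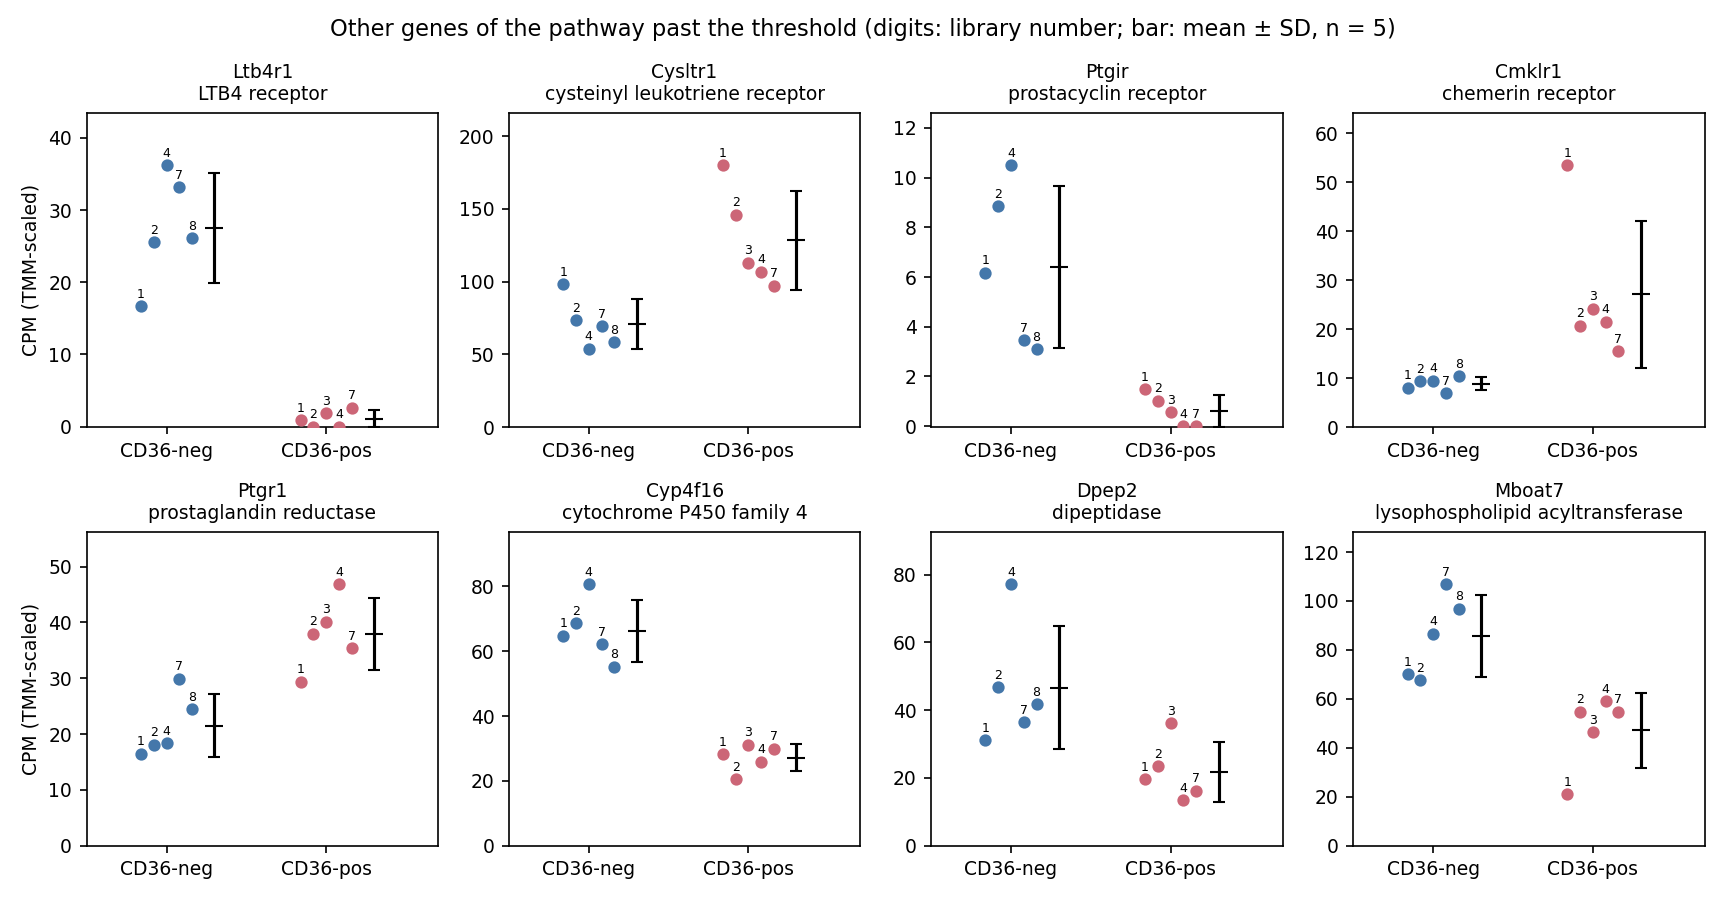
Levels of the 8 other pathway genes that passed the test, in TMM-scaled CPM on linear axes from 0; points are libraries with their numbers, blue for CD36-negative and red for CD36-positive, and black bars are the mean ± SD of 5 libraries. Ltb4r1 lies at 0 to 2.61 CPM in CD36-positive and at 16.7 to 36.2 CPM in CD36-negative libraries, while Cysltr1 and Cmklr1 are higher in CD36-positive ones.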

How the data were processed

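RNA of 10 sorted cell samples was sequenced as Smart-seq2 libraries. Per the submitters' processing notes, the tools named are HISAT2 2.1.0, StringTie 1.3.1, Bowtie2 2.2.8 and fastp 0.18.0, with build mm10; the program that made the counts and its use of strand are not given in the sources used here. The values the authors deposited are expected counts per gene (91.9% whole), rounded here to whole numbers. Of 22008 lines, 8 damaged and 131 repeated ones were left out, the nearest damaged line lying 46 lines from a member, and 21869 genes were kept. Libraries numbered by the descriptions were compared in edgeR 4.0.16 (R 4.3.3), 5 against 5 with no covariate. Settings were filterByExpr with a minimum count of 10, TMM, the quasi-likelihood test and a Benjamini-Hochberg adjusted p under 0.05. DESeq2 1.42.0 and limma 3.58.1 voom served as alternatives. On simulated data the code recovered 31.4% of planted 2-fold and 81% of planted 4-fold changes, so many 2-fold changes may not pass. Of its calls there, 3.69% were false. These rates average over genes of all levels, and fewer genes were changed there than passed here. They therefore need not hold for this comparison or for the members. Replicates of a group differed well beyond sampling noise. Libraries with the same description number deviated together with correlations of 0.0291 to 0.132, which cannot settle whether they are pairs. The labels do not say that numbers pair libraries, so numbers were not used as pairs. The text names all 10 members, the check gene Cd36, each pathway gene that passed, leading markers, and the 3 genes most like the member with the smallest p in each branch; members and lists were chosen with earlier results of these data known.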

Additional observations from a re-analysis of the deposited data

Results flagged for a closer look

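Ptgs2 in CD36-positive library 7 was at 8.32 CPM, apart from the other 4 libraries of its group, which lay between 0 and 1.12 CPM. The gap to the nearest library was 0.87 of the group's whole range, above the critical value of 0.71 for 5 libraries. Of 22 groups of values examined this was the 1 found, and chance gives about 1 in 20. The same library was highest for Ptges, at 5.07 CPM, and in CD36-negative library 1, the highest of its group, Ptgs2 was at 5.06 CPM.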

How the results depend on the processing

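The 8 tested members kept the sign of their log2 fold change in all 20 alternatives. The number of members that passed (1: Pla2g4a) was 2 with DESeq2 size factors, 2 with a filter of 10 CPM in 5 libraries, 3 with the DESeq2 Wald test, 3 with detected genes per library as covariate and 0 at an adjusted p of 0.01. Leaving out 1 library gave 0 to 1: 0 without CD36-negative library 1 or 4, Alox5 in place of Pla2g4a without CD36-negative library 2, and Hpgds in its place without CD36-negative library 8. Whether the numbers pair the libraries is not in the labels. With a replicate block by title number 2 members passed, Ptgs1 among them (0.68, edgeR adjusted p = 0.041). With a replicate block by description number over 8 libraries Ptgs1 passed (0.94, edgeR adjusted p = 0.0197). In that fit Pla2g4a (0.88, adjusted p = 0.0568), Ptgir (-4.33, adjusted p = 0.0627), Ptgr1 (0.87, adjusted p = 0.115) and Mboat7 (-0.88, adjusted p = 0.0825) did not pass. Of all genes, 303 were higher and 549 lower; the higher ones were 181 with the replicate block by description number, 188 without CD36-positive libraries 1 and 3, 615 with the DESeq2 Wald test and 132 to 380 with 1 library left out, and the lower ones 861 with the DESeq2 Wald test and 422 to 575 with 1 library left out. The causes were not tested. The alternatives given for pathway genes were chosen after seeing the data. Ptgs2 and Ptges had few counts in most libraries; whether more depth would change their test was not tested.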
